A study of Homo sapiens with 6 samples.

Results

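Epithelial-mesenchymal transition (EMT) factors and markers were examined in a human thyroid cell line. The set holds 10 genes, picked by symbol: CDH1, CDH2, EPCAM, VIM, FN1, SNAI1, SNAI2, ZEB1, ZEB2 and TWIST1. All 10 were found among the 22354 loci of the counts table, and 9 passed the filter on low counts, which kept 14860 loci; CDH1 did not pass it. The cells were HTori-3.1, an established line of normal thyroid origin, and bulk RNA was sequenced from 3 libraries labelled control, with a wild type genotype, and 3 labelled BMAL1 knockout. The knockout cells had received Cas9 and a guide RNA against BMAL1 by lentivirus, were selected with puromycin and were grown from single clones. The growth protocol in the labels, the same for both groups, also describes siRNA against BMAL1, and which libraries received it, and whether the control cells carried Cas9, is not given in the sources used here. Whether the 3 libraries came from separate clones or cultures is not given in the sources used here, so the p-values measure the spread between these libraries, which may be technical. All 6 were exposed to etoposide, a topoisomerase II poison that breaks DNA, at 2 μM, for 12 h per the treatment field of the labels and 24 h per their protocol. The comparison asks how these transcripts differ between the groups after this exposure. Total counts were 26893063, 27029060 and 28513703 in the control-labelled libraries and 43148059, 29860233 and 43563391 in the knockout-labelled ones, so the depth was lower in the control group.

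In EMT, epithelial cells lose the junctions that hold them together and take on the shape and migration of mesenchymal cells. Transcription factors of the SNAI, ZEB and TWIST families bind E-box motifs and repress epithelial genes such as CDH1, while N-cadherin, vimentin and fibronectin are used as markers of the mesenchymal state. Thyroid follicular cells are epithelial, and EMT has been studied in the thyroid mainly in carcinoma.

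The targeted transcript ran against its label. BMAL1 had 304, 326 and 409 counts in the control-labelled libraries and 764, 603 and 860 in the knockout-labelled ones. After scaling with TMM factors to counts per 1000000 (CPM), these were 12.7 ± 1.70 CPM and 19.0 ± 0.987 CPM (SD, n = 3 each), with no overlap. The log2 fold change was 0.58 (standard error, SE, 0.11; adjusted p = 0.0237, edgeR), and the adjusted p lay between 0.0153 and 0.129 over the 6 fits that each left out 1 library, under 0.05 without control replicate 3 and without knockout replicate 1. The position of the guide's cut in BMAL1 was not analysed here, so counts over the whole gene do not check the cut, and these counts hold no protein level. BMAL1 shares 421 of its exon bases, 6.07%, with ENSG00000290083 on the opposite strand. Whether the counting used strand is not given in the sources used here. NR1D1 and NR1D2, clock genes that BMAL1 activates with CLOCK, were named after their values were seen; both were lower, at log2 fold changes of -1.25 (SE 0.14, adjusted p = 0.00121) and -0.78 (SE 0.099, adjusted p = 0.00277), and NR1D1 overlaps THRA on the opposite strand. Other clock genes that BMAL1 activates are not reported here, so these 2 do not measure its activity. By the labels, clones were collected to check the knockout by western blot, which was not analysed here. An exchange of labels or columns was not tested; it would turn each direction below. Directions in the text compare the knockout-labelled with the control-labelled libraries, whatever the state of BMAL1 in them.

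Both groups had high levels of the mesenchymal markers VIM, FN1 and CDH2 and very low levels of the epithelial markers CDH1 and EPCAM. None of the 9 EMT genes tested had an adjusted p under 0.05 in edgeR, where 2.37% of the 14860 loci were called, 1.01% as higher and 1.36% as lower. FN1, VIM, ZEB2 and CDH2 were lower, and SNAI1 higher, at an unadjusted p under 0.05, so 5 of 9 genes passed this looser threshold, as did 2506 loci, or 16.9% of all tested. These 5 were also the EMT genes whose CPM values did not overlap between groups, and 23.3% of all loci tested shared that property. The median log2 fold change was -0.08 over the 9 genes and 0.01 over all loci. By other tools, limma-voom called 0 of the 9 genes and DESeq2 called 2, FN1 and VIM, both lower, in a fit where 2.67% of loci were called as lower. The same 2 were called as lower by edgeR without knockout replicate 1 (2.39% of loci called lower) and after the trend of counts with exon GC content was removed in each library (4.78%), and FN1 alone without knockout replicate 3 (0.973%). Over all loci, edgeR called 150 genes as higher and 202 as lower; with scaling by library size alone the counts were 175 and 155. Calls in both directions came to 352 with all libraries, 683 without knockout replicate 1 and fewer than 352 without any other library. In RNA from whole cultures, fewer cells of a kind and less RNA per cell cannot be told apart.

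**Figure D1:**
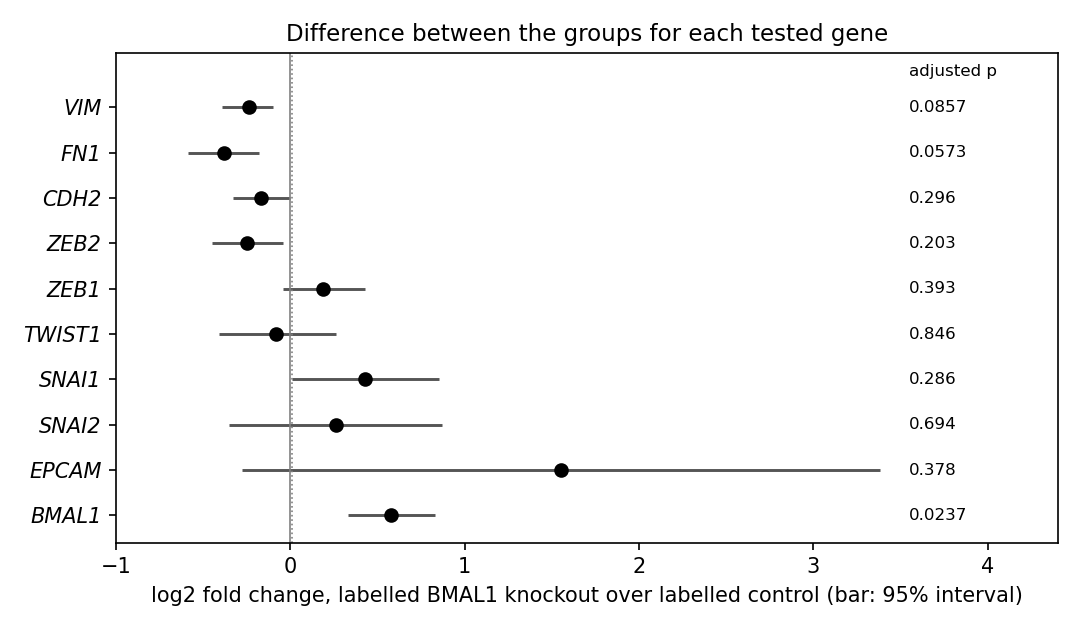
Log2 fold change (x axis, libraries labelled BMAL1 knockout over control) of the 9 EMT genes tested and of BMAL1, in order of level, with 95% intervals as bars and the adjusted p from edgeR at the right; the dotted line is the median of all loci, 0.01. The intervals of FN1, VIM, ZEB2 and, by less than the width of a line, CDH2 lie below 0 and those of SNAI1 and BMAL1 above it, and the adjusted p is under 0.05 for BMAL1 alone.

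CDH1 encodes E-cadherin, the adhesion receptor of epithelial adherens junctions, and maps to chr16:68737292-68835537 of hg38, forward strand. It had 5, 8 and 6 counts in the control-labelled libraries and 11, 10 and 14 in the knockout-labelled ones. Summed over each group, the 19 and 35 counts were 0.23 (95% Poisson interval 0.139 to 0.36) and 0.3 (0.209 to 0.418) per 1000000 counts, and these intervals overlap. They cover counting error only. Without the filter on low counts, edgeR gave CDH1 a log2 fold change of 0.36 (SE 0.51, adjusted p = 0.786), so a difference was not detectable at this depth.

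EPCAM, a surface glycoprotein of epithelial cells, maps to chr2:47345158-47387601, forward strand. Its counts were 0, 10 and 0 in the control-labelled libraries and 10, 16 and 17 in the knockout-labelled ones. A count of 0 allows up to 3 counts, or 0.112 and 0.105 per 1000000 in control replicates 1 and 3. Control replicate 2 lay at 0.374 CPM, inside the range of the knockout libraries, 0.234 to 0.524 CPM, so the groups overlap. The 10 and 43 counts per group were 0.121 (95% Poisson interval 0.0582 to 0.223) and 0.369 (0.267 to 0.497) per 1000000. These counting intervals do not overlap, yet the spread between the control libraries is wider than they allow for, and edgeR gave a log2 fold change of 1.55 with a standard error of 0.84 (adjusted p = 0.378). EPCAM passed the filter through control replicate 2 and knockout replicates 2 and 3. Its fitted value ran from 0.96, without control replicate 3, to 6.68, without control replicate 2. In the latter fit the remaining control libraries had 0 counts, so 6.68 rests on the small prior count that edgeR adds. It is not a measured fold, and the prior count was not varied. The 20 tested genes on each side of EPCAM had a median log2 fold change of 0.2; around the other 9 genes the same median lay between -0.03 and 0.05.

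CDH2 encodes N-cadherin, the cadherin that mesenchymal and neural cells use, and maps to chr18:27932879-28177946, reverse strand. It had 4450, 4671 and 5134 counts in the control-labelled libraries and 6301, 4755 and 7256 in the knockout-labelled ones. Scaled, these were 166, 175 and 183 CPM against 148, 156 and 164 CPM, so the highest knockout library lay just under the lowest control library. The log2 fold change was -0.17 (SE 0.076, adjusted p = 0.296). Per length, as reads per kilobase of canonical transcript per 1000000 reads (RPKM), the ratio of the CDH2 level to the CDH1 level was 930 ± 201 in the control-labelled libraries and 626 ± 58.4 in the knockout-labelled ones (SD, n = 3 each). The ranges of this ratio, 699 to 1070 and 570 to 686, do not overlap, and its denominator rests on at most 14 counts.

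VIM encodes vimentin, the intermediate filament protein of mesenchymal cells, and maps to chr10:17228241-17237593, forward strand. It took 49115, 49539 and 49787 counts in the control-labelled libraries and 65742, 46059 and 69389 in the knockout-labelled ones. On the CPM scale it stood at 1830, 1850 and 1780 against 1540, 1510 and 1570. The 3 knockout libraries lay close together and below each control library. VIM gave a log2 fold change of -0.24 (SE 0.067, 95% interval -0.39 to -0.1) with an adjusted p of 0.0857 in edgeR. Over the 16 alternatives its log2 fold change ranged from -0.26 to -0.21 and its adjusted p from 0.00437, in DESeq2, to 0.331, without control replicate 2, and without knockout replicate 1 it was 0.0146.

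FN1 encodes fibronectin, a matrix glycoprotein that cells bind through integrins, and maps to chr2:215360440-215436073, reverse strand. It alone took 0.281% to 0.442% of the counts of a library. Its counts were 110718, 111711 and 126051 in the control-labelled libraries and 121265, 100046 and 163579 in the knockout-labelled ones. These became 4130, 4180 and 4500 CPM against 2840, 3280 and 3690 CPM, so each knockout library was below each control library, and knockout replicate 1 was lowest. The log2 fold change of FN1 was -0.38 (SE 0.094, 95% interval -0.59 to -0.18), a fold of 0.766, with an adjusted p of 0.0573. It had the smallest p of the 9 genes, at place 416 of the 14860 loci. Over the alternatives the log2 fold change lay between -0.48 and -0.29 and the adjusted p between 0.00284 and 0.188, under 0.05 in 4 of 16, so FN1 stood near the threshold. Without knockout replicate 1 the adjusted p was 0.0229 at a log2 fold change of -0.29, and without knockout replicate 3 it was 0.0258 at -0.48.

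**Figure D2:**
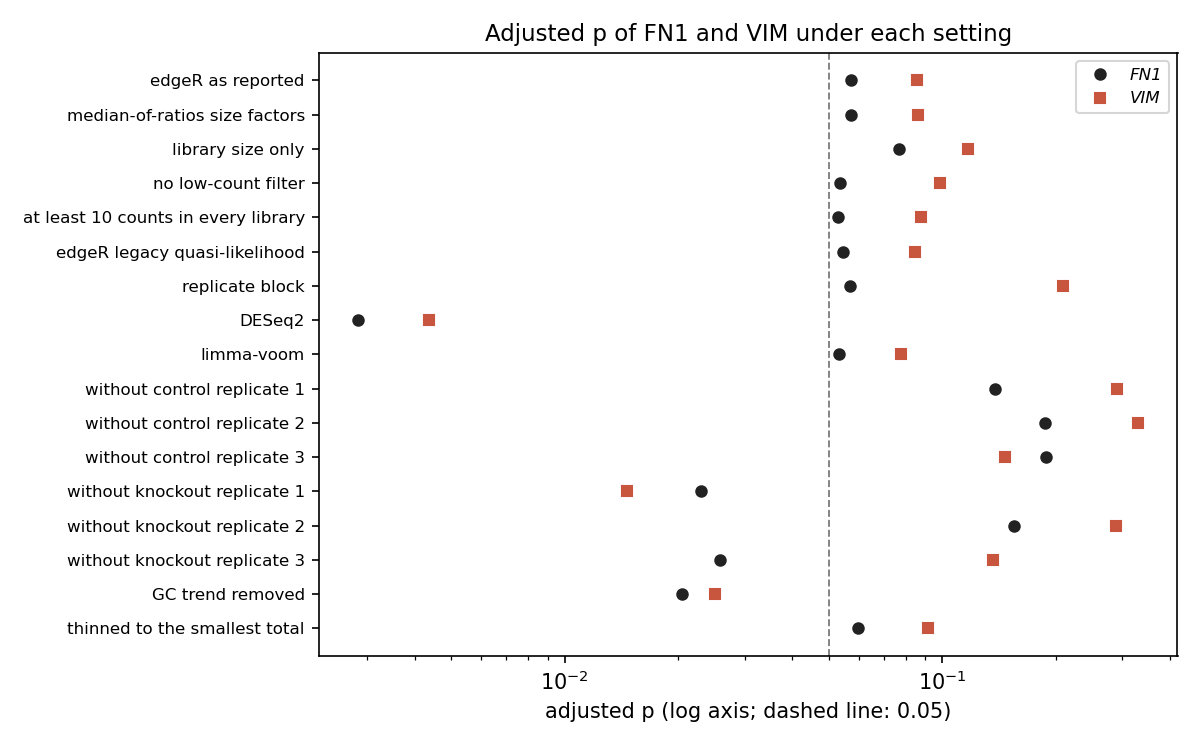
Adjusted p (x axis, log scale) of FN1 (circles) and VIM (squares) under the reported edgeR fit and 16 alternatives; the dashed line marks 0.05. FN1 lies below the line under 4 alternatives and VIM under 3, with values from 0.00284 to 0.188 and from 0.00437 to 0.331.

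SNAI1 and SNAI2 encode Snail and Slug, zinc finger repressors of CDH1. SNAI1, at chr20:49982980-49988886, forward strand, had 44, 62 and 52 counts in the control-labelled libraries and 103, 83 and 120 in the knockout-labelled ones. The values were 1.64, 2.32 and 1.86 CPM against 2.41, 2.72 and 2.71 CPM, with the lowest knockout library just above the highest control library. The log2 fold change was 0.43 (SE 0.19, 95% interval 0.01 to 0.85, adjusted p = 0.286). SNAI2, on chromosome 8, had 33, 44 and 30 counts in the control group and 83, 31 and 72 in the knockout group, which is 1.23, 1.65 and 1.07 CPM against 1.94, 1.02 and 1.62 CPM. Knockout replicate 2 was the lowest of the 6, and the groups overlap. Its log2 fold change of 0.26 had a 95% interval from -0.35 to 0.87 (adjusted p = 0.694), which leaves differences of either sign within the error, and its log2 fold change was 0.13 without control replicate 3, 0.06 without knockout replicate 1 and 0.45 without control replicate 2. SNAI1 was above SNAI2 in RPKM in each library, by a ratio of 1.59 to 3.42.

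ZEB1 and ZEB2 encode large zinc finger and homeodomain repressors that keep epithelial genes silent and are themselves targets of the miR-200 family. ZEB1, at chr10:31318495-31529814, forward strand, had 638, 723 and 724 counts in the control-labelled libraries and 1418, 876 and 1144 in the knockout-labelled ones. At 23.8, 27 and 25.9 CPM against 33.2, 28.7 and 25.8 CPM the groups overlap, since knockout replicate 3 lies among the controls. Its log2 fold change was 0.19 (SE 0.11, adjusted p = 0.393), and 0.09 without knockout replicate 1, its highest library. ZEB2, at chr2:144364364-144521057, reverse strand, had 1252, 1250 and 1475 counts against 1702, 1164 and 1997. Its 46.7, 46.7 and 52.7 CPM in the control group lay above the 39.9, 38.1 and 45.1 CPM of the knockout group. The log2 fold change of ZEB2 was -0.25 (SE 0.093, adjusted p = 0.203). The ratio of the ZEB2 level to the ZEB1 level in RPKM was 1.22 ± 0.103 in the control-labelled libraries and 0.913 ± 0.183 in the knockout-labelled ones (SD, n = 3 each), and the ranges, 1.11 to 1.31 and 0.769 to 1.12, overlap.

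TWIST1, a basic helix-loop-helix factor at chr7:19020991-19117636, reverse strand, had 223, 195 and 182 counts in the control-labelled libraries and 245, 220 and 354 in the knockout-labelled ones. The corresponding 8.31, 7.29 and 6.5 CPM and 5.74, 7.21 and 7.99 CPM overlap. Its log2 fold change was -0.08 (95% interval -0.41 to 0.26, adjusted p = 0.846), and the sign turned without control replicate 1 (0.02) and without knockout replicate 1 (0.05). Its paralog TWIST2 was higher than TWIST1 in RPKM in each library, by a ratio of 1.57 to 2.31.

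By level per length, averaged over the 6 libraries, the order was VIM at 780 RPKM, FN1 at 449, CDH2 at 41.1, ZEB2 at 4.84, ZEB1 at 4.62, TWIST1 at 4.4, SNAI1 at 1.33, SNAI2 at 0.652, EPCAM at 0.163 and CDH1 at 0.0555 RPKM. VIM ranked at place 43 and FN1 at place 94 of the 20018 loci with a known length. Among neighbours in this order, the libraries' ranges overlap for ZEB2 and ZEB1, for ZEB1 and TWIST1, and for EPCAM and CDH1. Within the control group ZEB2, at 5.04 to 5.68 RPKM, lay above ZEB1, at 4.01 to 4.55. In the knockout group their ranges overlap and the means were 4.43 for ZEB2 and 4.93 for ZEB1. Knockout replicate 3 had ZEB2 above ZEB1, at 4.86 and 4.35 RPKM, as in the controls. The order of the group means thus differed, and this difference was not tested. VIM stood above FN1, FN1 above CDH2, CDH2 above ZEB2, TWIST1 above SNAI1, SNAI1 above SNAI2 and SNAI2 above EPCAM in 6 of 6 libraries. Whether the counting used strand is not given in the sources used here. VIM shares 12.7% of its annotated exon bases with a gene on the opposite strand, VIM-AS1, and TWIST1, CDH1, ZEB2, ZEB1, SNAI2 and CDH2 share 7.06% to 3.58% with another antisense gene, so reads of these partners cannot be told apart; the partners were not analysed here.

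The promoters of FN1 and VIM, the genes with the smallest p-values, and the first start of ZEB1, the gene with the SNAI and ZEB motif, are shown from the RefSeq promoter table (GRCh38.p14), 5′ to 3′ on the gene's strand, ending before the start of the transcript. They lie at chr2:215436074-215436318 on the reverse strand for FN1 (245 bases), chr10:17227991-17228240 on the forward strand for VIM (250 bases) and chr10:31318167-31318416 on the forward strand for ZEB1 (250 bases). They lie outside exons of these 3 genes, those of FN1 and ZEB1 overlap exons of FN1-DT and ZEB1-AS1 on the opposite strand, and capitals mark each E-box of the form CANNTG.
FN1: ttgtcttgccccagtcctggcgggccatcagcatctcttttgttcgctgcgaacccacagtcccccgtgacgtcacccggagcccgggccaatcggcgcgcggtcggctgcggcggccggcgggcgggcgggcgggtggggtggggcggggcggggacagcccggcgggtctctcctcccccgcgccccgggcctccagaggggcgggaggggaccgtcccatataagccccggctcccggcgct
VIM: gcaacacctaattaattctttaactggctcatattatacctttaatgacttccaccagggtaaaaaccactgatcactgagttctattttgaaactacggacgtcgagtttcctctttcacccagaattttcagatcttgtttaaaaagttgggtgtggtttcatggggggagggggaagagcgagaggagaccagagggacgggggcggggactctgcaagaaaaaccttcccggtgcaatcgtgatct
ZEB1: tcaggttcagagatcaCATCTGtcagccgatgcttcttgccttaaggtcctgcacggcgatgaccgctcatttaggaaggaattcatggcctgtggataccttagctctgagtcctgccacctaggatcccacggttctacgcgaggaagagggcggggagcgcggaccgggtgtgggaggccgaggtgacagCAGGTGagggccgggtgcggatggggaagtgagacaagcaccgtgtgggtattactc
The table held 12 promoters of 5 of the 10 genes, CDH2, VIM, FN1, ZEB1 and ZEB2; CDH1, EPCAM, SNAI1, SNAI2 and TWIST1 had no entry. On either strand, CAGGTG, the E-box that SNAI and ZEB factors bind, was in 2 of the 12 promoters, both of ZEB1, and in 20.6% of the 35116 promoters of 300 bases in the table. CACGTG, the E-box of CLOCK and BMAL1, was in 0 of the 12 and in 7.26% of all. CANNTG, which includes the other motifs, was in 6 of the 12, of CDH2, ZEB1 and ZEB2, and in 68.7% of all. Most of the 12 were starts of ZEB1, so the shares of 12 weigh that gene most. By gene, CAGGTG was in promoters of 1 of the 5 genes and CANNTG in those of 3 of the 5. A match is a description of the letters and not a bound site.

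Genes around the EMT program were grouped in 5 lists. Of 27 epithelial junction partners, 24 were tested and 0 had an adjusted p under 0.05 in edgeR, with 6 at an unadjusted p under 0.05 (5 higher, 1 lower) and 0 called by DESeq2 or limma-voom. Over all loci, edgeR called 2.37%, and 16.9% had an unadjusted p under 0.05. The list's median log2 fold change was 0.08, beside 0.01 over all loci, with 14 genes above 0 and 10 below. Cadherins act through catenins, and the most abundant partners were CTNNA1 (α-catenin), at 642 ± 11.6 CPM in the control-labelled libraries and 588 ± 8.41 CPM in the knockout-labelled ones, and CTNNB1 (β-catenin), at 353 ± 9.8 CPM and 347 ± 8.64 CPM (SD, n = 3 each). Their log2 fold changes were -0.13 and -0.02 (adjusted p = 0.364 and 0.898). Both catenins thus had high levels in cells with little CDH1. A tight junction adhesion molecule, F11R, singled out after its values were seen, had 954, 968 and 992 counts in the control group and 1818, 6 and 2032 in the knockout group. In knockout replicate 2, the protein-coding locus ENSG00000270149, which shares 1853 exon bases with F11R on the same strand, had 695 counts, against 4 to 22 in the other libraries. Added together, the loci gave 35.8, 36.4 and 35.6 CPM in the control-labelled libraries and 43.1, 23 and 46 CPM in the knockout-labelled ones, so the value of F11R is uncertain where reads can be split between overlapping loci.

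Of 24 epithelial regulators and surface genes, 14 were tested, 1 was called as higher and 2 as lower. All loci gave 1.01% and 1.36%. The list's median log2 fold change was 0.08, beside 0.01 over all loci. In edgeR, 8 had an unadjusted p under 0.05 (5 higher, 3 lower), beside 16.9% of all loci. GRHL3, a grainyhead factor of epidermal barrier formation, rose from 1.95 ± 0.234 CPM to 3.83 ± 0.298 CPM (SD, n = 3 each; log2 fold change 0.98, SE 0.17, adjusted p = 0.0145). KLF4, a Krüppel-like factor of differentiating epithelia, changed from 26.3 ± 0.827 CPM to 18.9 ± 1.13 CPM (log2 fold change -0.48, adjusted p = 0.0193). SPINT2, an inhibitor of membrane serine proteases, changed from 11.2 ± 0.619 CPM to 7.68 ± 0.892 CPM (log2 fold change -0.54, adjusted p = 0.0427). It shares 242 exon bases with another locus on the same strand and 622 with one on the opposite strand. GRHL3 lost its call without control replicate 2 and without control replicate 3 (adjusted p up to 0.0867). The calls of KLF4 and SPINT2 held in the fit without knockout replicate 1 and in no other of the 6 fits that left out a library, where the adjusted p reached 0.115 and 0.18. AP1M2 (25.5 RPKM) and MAL2 (17.6 RPKM), which sort and carry proteins in polarized epithelia, were the most abundant of the list; their log2 fold changes were 0.26 and -0.27 (adjusted p = 0.126 and 0.2). GRHL2 and RAB25 were at 0 counts in each library, as were CDH11, LUM and DCN of the mesenchymal list.

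Of 26 mesenchymal genes, 19 were tested, 1 was called as higher and 3 as lower, 9 lay above 0 and 10 below, and the median log2 fold change was -0.01. Over all loci edgeR called 1.01% as higher and 1.36% as lower, with a median of 0.01. An unadjusted p under 0.05 in edgeR was found for 12 of the list's genes (5 higher, 7 lower) and for 16.9% of all loci. DESeq2 called 7 of the list and 4.47% of all loci. Whether the list exceeds these shares was not tested. TNC, the matrix glycoprotein tenascin C, stood at 219, 225 and 228 CPM in the control-labelled libraries and at 125, 137 and 153 CPM in the knockout-labelled ones. It fell by 0.70 on the log2 scale (SE 0.085, adjusted p = 0.00221), and its adjusted p was at most 0.0227 with any 1 library left out. NT5E, the ectonucleotidase CD73, changed from 57.3 ± 4.29 CPM to 30.9 ± 9.17 CPM (SD, n = 3 each; log2 fold change -0.89, SE 0.17, adjusted p = 0.0272), with knockout replicate 1 the highest of its group at 41.3 CPM. CD44, a hyaluronan receptor, changed from 361 ± 18.4 CPM to 265 ± 15.0 CPM (log2 fold change -0.45, adjusted p = 0.012). ACTA2, smooth muscle actin, changed in the other direction, from 1.82 ± 0.19 CPM to 3.51 ± 0.277 CPM (log2 fold change 0.95, SE 0.18, adjusted p = 0.0182). It shares 1638 exon bases with ACTA2-AS1 and 387 with FAS on the opposite strand. On the same strand it shares 401 with ENSG00000286116. With 1 library left out, the call of CD44 was lost without control replicates 2 and 3 and knockout replicate 2, that of NT5E without each control replicate and knockout replicate 3, and that of ACTA2 without each control replicate and knockout replicate 2, with adjusted p up to 0.0669, 0.11 and 0.0867. SPARC (333 RPKM), a matrix protein, and TPM1 (265 RPKM), a tropomyosin, led the list by level, with log2 fold changes of -0.01 and 0.01 (adjusted p = 0.965 and 0.944).

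Of 33 EMT factors outside the 10 and their partners, 29 were tested and 2 were called, both lower, against 1.36% of all loci. The median log2 fold change was -0.02, against 0.01. In edgeR, 7 had an unadjusted p under 0.05 (2 higher, 5 lower), against 16.9% of all loci. SOX9, an HMG-box factor of progenitor cells, had 15.3, 12.3 and 12.7 CPM in the control-labelled libraries and 8.95, 6.62 and 7.72 CPM in the knockout-labelled ones (log2 fold change -0.78, SE 0.14, adjusted p = 0.0135). HMGA2, an architectural chromatin protein, had 93.3, 92.7 and 104 CPM against 77.1, 64.9 and 70.1 CPM (log2 fold change -0.45, SE 0.087, adjusted p = 0.0214). In neither gene did the groups overlap. SOX9 lost its call without control replicate 1 and without control replicate 3 (adjusted p up to 0.0643), and HMGA2 kept its call without knockout replicate 1 and lost it in the other 5 fits (up to 0.104). KLF8, a Krüppel-like repressor, was lower without being called, at 0.843 ± 0.31 CPM and 0.358 ± 0.0183 CPM (SD, n = 3 each; log2 fold change -1.23, SE 0.37, unadjusted p = 0.00661, adjusted p = 0.113), and was the list's gene past a fold change of 2 at an unadjusted p under 0.01. HDAC1 (94.7 RPKM) and KDM1A (72.9 RPKM), enzymes of the corepressor complexes that SNAI factors recruit, were the most abundant, at log2 fold changes of 0.03 and -0.16 (adjusted p = 0.886 and 0.334).

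Of 25 EMT inducers and receptors, 23 were tested, 4 lay above 0 and 19 below, and the median log2 fold change was -0.12, with 0.01 over all loci; 2 were called, both lower, a call made for 1.36% of all loci. The list also holds SMAD proteins, which carry or inhibit signals inside the cell, so the split is not of inducers and receptors alone. In edgeR, 8 had an unadjusted p under 0.05 (1 higher, 7 lower), against 16.9% of all loci. DESeq2 called 5, where it called 4.47% of all loci, 256 as higher and 379 as lower. Of the 5, 4 were lower and JAG1, a Notch ligand, was higher. The edgeR log2 fold change of JAG1 was 0.31 (adjusted p = 0.103, under 0.05 in 3 of 16 alternatives). WNT5B, a Wnt ligand, had 41.8, 41.7 and 45.8 CPM in the control-labelled libraries and 23.3, 21.5 and 25.9 CPM in the knockout-labelled ones. It fell by 0.87 on the log2 scale (SE 0.095, adjusted p = 0.00121), and its adjusted p was at most 0.0167 with any 1 library left out. FGF2, a fibroblast growth factor, changed from 112 ± 10.2 CPM to 86.2 ± 4.54 CPM (SD, n = 3 each; log2 fold change -0.38, SE 0.086, adjusted p = 0.043). It shares 804 exon bases with NUDT6 on the opposite strand, and its call held without knockout replicate 1 and was lost without each of the other 5 libraries (adjusted p up to 0.173). The receptors MET (34.9 RPKM) and EGFR (29.6 RPKM) were the most abundant of the list, each with a log2 fold change of -0.12 (adjusted p = 0.4 and 0.473).

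The label of a normal thyroid cell line was set against marker genes. Of 9 thyroid follicular markers, the factors PAX8, FOXE1 and HHEX were present, led by PAX8 at 133 ± 15.4 CPM and 110 ± 19.1 CPM (SD, n = 3 each). PAX8 shares 1651 of its exon bases, 22.4%, with PAX8-AS1 on the opposite strand. The functional genes TG, TSHR, SLC5A5, DUOX2 and DIO1 had at most 13 counts in any library. These defining markers of differentiated follicular cells were thus near 0. The factor NKX2-1 had 0 counts in each library, but it shares 1033 exon bases with SFTA3 on the same strand. Counts of SFTA3 are not reported here, so the 0 of NKX2-1 may not mean absence. The list's summed level was 182, 183 and 212 CPM in the control-labelled libraries and 141, 158 and 183 CPM in the knockout-labelled ones, and 0 of its 3 tested genes were called by edgeR, DESeq2 or limma-voom, with 2 at an unadjusted p under 0.05, where all loci gave 2.37% called by edgeR and 16.9% at an unadjusted p under 0.05.

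Keratins of simple epithelia were abundant beside VIM. KRT8 led 4 keratins at 719 RPKM and had a log2 fold change of -0.28 (adjusted p = 0.0517); DESeq2 and limma-voom called it as lower, and 4 of 16 alternatives put it under 0.05, with adjusted p from 0.000498 to 0.254. KRT18, its filament partner, fell by 0.50 on the log2 scale, from 852 ± 9.45 CPM to 602 ± 44.2 CPM (SD, n = 3 each; SE 0.075, adjusted p = 0.00588); without control replicate 2 its adjusted p was 0.0561. Both have processed pseudogenes and they share exon bases on opposite strands, so their counts are uncertain. KRT7, from 710 to 760 CPM, and KRT19, from 7.67 to 8.97 CPM, were higher and not called (log2 fold changes 0.1 and 0.23, adjusted p = 0.535 and 0.406), so 2 keratins were higher and 2 lower, and edgeR called 1 of 4 as lower, against 1.36% of all loci. The summed level of the 4 was 2990, 3040 and 2900 CPM in the control group and 2540, 2480 and 2560 CPM in the knockout group, lower in each knockout library through KRT8 and KRT18, and its part in the values of VIM and FN1 was not tested.

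Of 10 markers of fibroblasts and mural cells, 5 were tested and 1, ACTA2, was called as higher; over all loci 1.01% were called as higher and 1.36% as lower. COL1A1 led them at 860 ± 77.9 CPM and 859 ± 141 CPM (SD, n = 3 each). PDGFRB, at 19.1 and 21.0 CPM, and RGS5, at 4.32 and 3.96 CPM, were also present. COL1A2 and COL3A1 had at most 2 counts and LUM and DCN 0 in any library. The list thus held both genes at or near 0 and genes well above it. The sums, 928, 933 and 796 CPM in the control group and 726, 943 and 997 CPM in the knockout group, overlap. The 6 endothelial markers summed to 2.98, 2.58 and 2.86 CPM and to 1.83, 1.87 and 2.44 CPM, led by VWF, and PECAM1 had at most 8 counts in any library; 0 of 4 tested were called by edgeR, DESeq2 or limma-voom, with 0 at an unadjusted p under 0.05 (16.9% of all loci). The 6 immune markers summed to 19.3, 20 and 18 CPM and to 14.2, 12.5 and 13.1 CPM, led by CD68, with CD3E at 0 counts in each library; of 3 tested, 1 was higher and 2 lower, 1 of them called. CD14 was higher, from 0.413 ± 0.202 CPM to 0.835 ± 0.399 CPM (SD, n = 3 each; log2 fold change 0.97, SE 0.49, adjusted p = 0.343), and CD68 lower (log2 fold change -0.27, adjusted p = 0.294), neither called. CD68 shares 1765 of its exon bases, 81.6%, with ENSG00000264772 on the same strand, so its value and the immune sum are uncertain. PTPRC, the leukocyte phosphatase CD45, had 172, 167 and 183 counts in the control group and 107, 60 and 115 in the knockout group and fell by 1.42 on the log2 scale (SE 0.15, adjusted p = 0.00107). The 5 markers of C cells and parathyroid cells summed to at most 0.298 CPM in any library, led by CHGA, with CALCA, PTH and CASR at 0 counts in each and 0 genes tested. The part of these levels in the values of the EMT genes was not tested.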

How the data were processed

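RNA-seq of 6 libraries was used. The authors filtered out reads with adapters or poor bases and aligned the rest to hg38. They deposited raw counts of reads with a unique alignment for each gene and library; the submitters' processing notes name fastp 0.20.1 and HISAT2 2.0.4. The annotation and strandedness are not given in the sources used here. The table also lists 2310 loci with MSTRG names. Columns were matched to samples by name, and groups were taken from the labels.

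Counts were fitted with edgeR 4.0.16 in R 4.3.3 (TMM, default low-count filter, robust quasi-likelihood test, 2-sided), with Benjamini-Hochberg adjustment over the 14860 loci kept and a threshold of 0.05. The biological coefficient of variation was 0.108. Total counts ranged from 26893063 to 43563391, and replicates of a group differed by 5.41 to 45 times the variance of counting, the largest being the pairs of knockout replicate 1 (31 and 45, against 7.43 for knockout replicates 2 and 3), so spread between replicates limits the precision of abundant genes. Levels per length used GENCODE v44 canonical transcripts, with 20018 of 22354 loci matched by name. An exact permutation test of 3 libraries against 3 gives a p of 0.1 at the least, so none is reported for single values.

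The members and lists were chosen with earlier results of these data known. Genes named are the 10 EMT genes, BMAL1, genes of each list with an adjusted p under 0.05 (at most 8) and the 2 with the highest RPKM, and of each marker list the most abundant gene and those at or near 0; some markers are not reported here. Named outside this rule, with values known, were NR1D1, NR1D2, TWIST2, F11R, KLF8, JAG1, KRT7, KRT19, CD14, FOXE1 and HHEX. So were GRHL2, RAB25, CDH11, PDGFRB, RGS5 and genes that overlap those named. Alternatives were size factors by median of ratios, scaling by library size, dropping the filter, a minimum of 10 counts in each library, the replicate block, DESeq2 1.42.0, limma-voom (limma 3.58.1), each library left out, GC trend removal, thinning to the smallest total, and a fold change over 2 with an unadjusted p under 0.01. edgeR's legacy quasi-likelihood estimate and the sum of F11R with its overlapping locus were added after seeing the data. The edgeR, DESeq2, limma-voom and GC steps were tested on simulated data.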

Additional observations from a re-analysis of the deposited data

How the results depend on the processing

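EMT genes called as higher numbered 0 under each alternative. Those called as lower, 0 in the reported fit, numbered 2 with DESeq2, 2 after GC trend removal and 0 to 2 with a library left out. Genes called as higher and lower over all loci, 150 and 202 as reported, were 256 and 379 with DESeq2, 439 and 711 after GC trend removal, 84 and 52 with a fold change over 2 at an unadjusted p under 0.01, and 39 to 323 and 65 to 360 with a library left out. Junction genes called were 1 after GC trend removal and 0 to 1 with a library left out. Called epithelial regulators, 3 as reported, were 5 after GC trend removal, 0 by the fold change threshold and 0 to 4 with a library left out. Called mesenchymal genes, 4 as reported, were 7 with DESeq2, 8 after GC trend removal, 0 by the fold change threshold and 1 to 7 with a library left out. Called factors and partners, 2 as reported, were 3 after GC trend removal, 1 (KLF8, not among the 2) by the fold change threshold and 0 to 2 with a library left out. Called inducers and receptors, 2 as reported, were 1 with library size only, 1 without the low-count filter, 1 after thinning, 5 with DESeq2, 6 after GC trend removal, 0 by the fold change threshold and 1 to 4 with a library left out. Leaving out a library leaves fewer samples, and calls over all loci rose from 352 to 683 without knockout replicate 1. The cause of these and the other shifts was not tested. TWIST1 turned sign, from -0.08 to 0.02 without control replicate 1 and 0.05 without knockout replicate 1 (range -0.2 to 0.05 with a library left out); for the other 8 EMT genes tested, the sign held in each alternative that gave a value.

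With the replicate block, calls over all loci were 97 higher and 119 lower, 0 EMT genes were called, and called genes were 1 epithelial regulator, 1 inducer or receptor, 4 mesenchymal genes and 2 factors and partners. The numbers do not pair the samples: deviations of same-numbered libraries correlated at -0.09, -0.052 and -0.005.

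CDH1, with at most 14 counts in a library, is limited by counting at this depth, and EPCAM by the spread between the control libraries, at 0, 10 and 0 counts. Members were not chosen blind to earlier results, and the groups differ in depth, with median totals of 27029060 and 43148059.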
